A study of Mus musculus with 12 samples.

Results

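The data described here come from primary hepatocytes of PGC-1alpha -/- mice in which TLS was knocked down, and from cells of the same mice given a control vector. TLS is an RNA-binding protein. The members were 6 of the 12 arrays of the series: 3 labelled with the shTLS vector and 3 with the control shRNA vector, chosen by their titles. All mice were C57BL/6, and both groups lacked PGC-1alpha, so the controls carried the deletion too. The hepatocytes were isolated by collagenase perfusion, cultured with dexamethasone (100 nM) and insulin (100 nM), infected overnight at a multiplicity of infection of 5, and harvested 24 h after infection. Each of the 3 mice gave 1 control and 1 shTLS culture, and both were hybridized to the same slide. The comparison was therefore made within mice. The 6 arrays of +/+ mice, with the same vectors, entered the fit to estimate the spread and are otherwise cited only for the contrast between genotypes. Neither the ages of the mice nor the hairpin sequences are given in the labels, and which part of the PGC-1alpha gene was deleted is not given either.

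TLS is a nuclear protein that binds RNA and single-stranded DNA. It takes part in transcription by RNA polymerase II, splicing, microRNA processing and the repair of DNA damage. Ppargc1a is the gene of PGC-1alpha, a coactivator of transcription that in liver raises genes of mitochondrial respiration, fatty acid oxidation and gluconeogenesis in fasting. Interferon-stimulated genes, which recur in the results, are a set of antiviral genes that cells switch on when type I or type II interferon activates STAT and IRF factors.

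Levels are log2 fluorescence signals after quantile normalization, and a difference is the shTLS level minus the control level of the same mouse, averaged over 3 mice. A gene is represented by its brightest probe and is called when its adjusted p (limma, paired by mouse, Benjamini-Hochberg over all genes tested) is under 0.05. Before normalization the shTLS arrays were dimmer: the processed signal at the 75th percentile ranged from 830.9 to 1064 in the controls and from 426.2 to 634.6 with shTLS. The number of probes well above background was nevertheless similar, at 25112 to 25914 and 25114 to 26670 of 41174. Quantile normalization sets the arrays to 1 distribution, so each change is relative to the other genes. When arrays were instead scaled to spike-in probes, the median of all genes shifted from -0.02 to -0.78. On every slide the controls lay at array position 3 and the shTLS samples at position 4, so position and vector cannot be told apart. Deviations from the group mean correlated between the cultures of the same -/- mouse at 0.61 to 0.68, and between different mice at -0.07 or below. Deviations from a mean of 3 arrays sum to 0, so positive same-mouse values push the other values below 0.

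The Ppargc1a probe read 9.70, 9.40 and 9.04 in the control cultures and 8.84, 8.92 and 8.67 with shTLS, a difference of -0.57 (SE 0.24) that was not called (adjusted p = 0.178). Control cultures of +/+ mice read 9.03, 10.39 and 8.23 on this probe, so the genotypes overlap. Since the deleted part of the gene is not given, this single probe does not check the genotype labels.

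**Figure D1:**
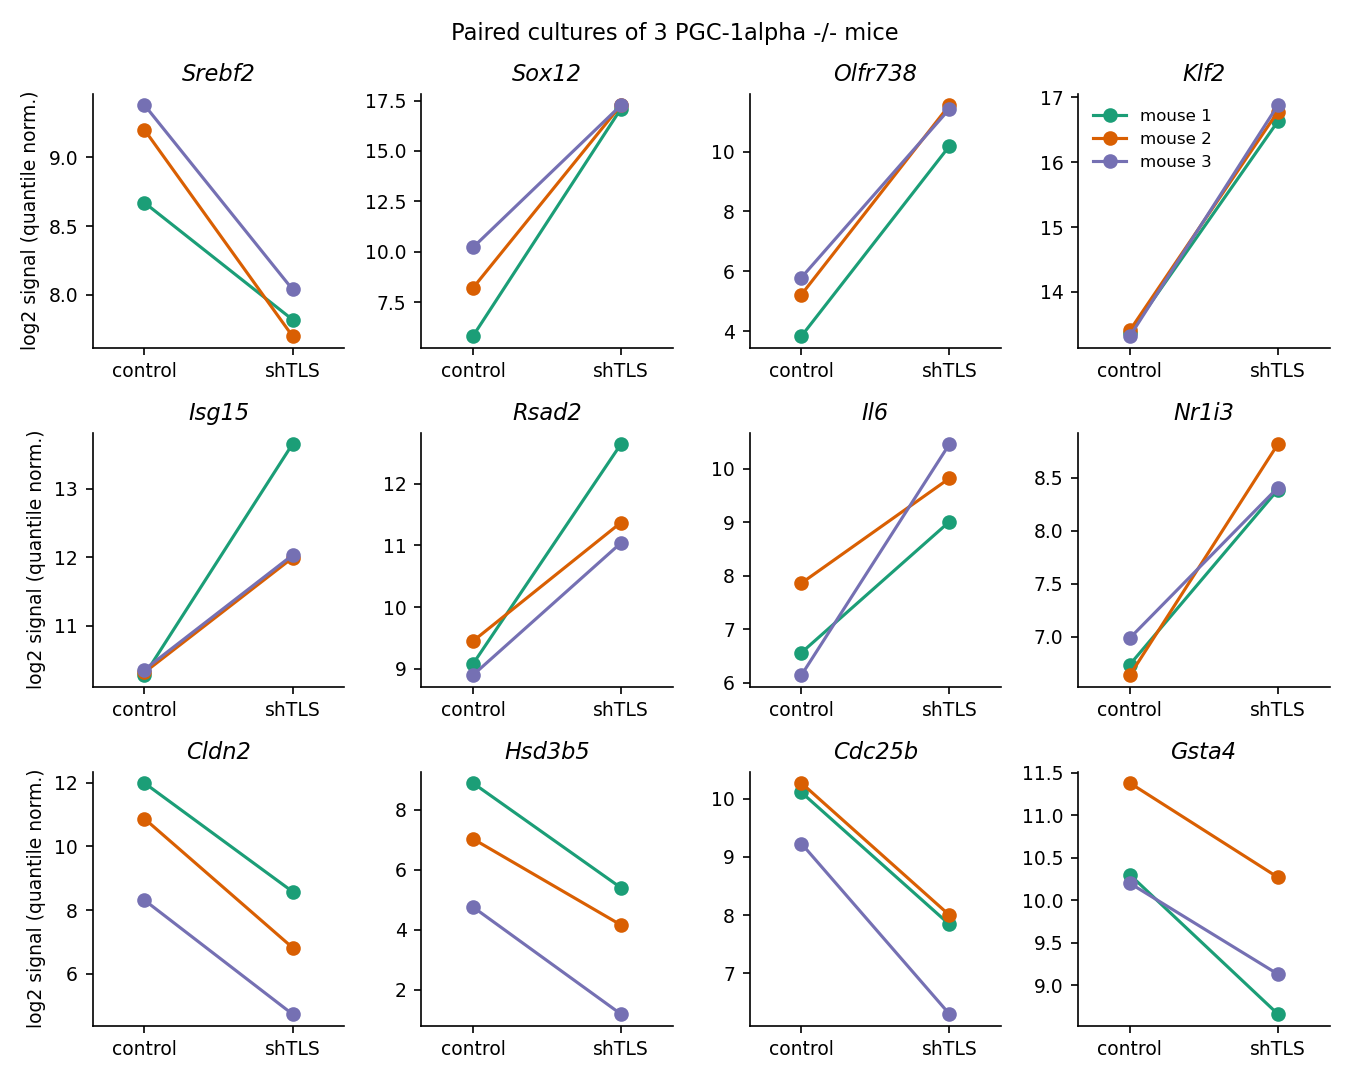
Levels (log2 quantile-normalized signal, vertical axes scaled per gene) of 12 genes in the control and shTLS cultures of 3 PGC-1alpha -/- mice, with a line joining the cultures of 1 mouse. Lines of a gene run the same way in all 3 mice; Klf2 rises from 13.32 to 13.41 in controls to 16.63 to 16.88 with shTLS.

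Of 18841 genes tested, 1649 (8.75%) were called: 1030 (5.47%) were higher and 619 (3.29%) lower with shTLS. All 1649 had the same sign in the 3 mice, 907 of the higher ones differed by more than 1 log2 unit, and 467 of the lower ones did. The higher genes made up 62.5% of the calls, against 72.8% with arrays scaled to their 75th percentile and 6.47% with spike-in scaling. Of the 1030 higher genes, 1002 still had a positive difference under spike-in scaling, against 13% of all genes tested. Without the pairing only 191 genes were called, 184 higher and 7 lower, and leaving out any 1 mouse left between 183 and 378.

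Higher calls were concentrated among weakly expressed genes. The median control level was 5.41 for the genes called higher, 8.17 for those called lower and 8.80 for all genes tested. The control level is itself subtracted in the difference, so these medians are not independent of the calls. Probes above background only with shTLS also passed the filter. Genes were split into 4 equal bins by their mean level over the 6 arrays. In the dimmest bin 9.85% were called higher and 4.33% lower. In the brightest bin the shares were 1.76% and 1.72%. The dimmer signal of the shTLS arrays moved with this pattern, and its part in it was not tested. Where a higher gene had other tested probes, 181 of 208 of these (87.0%) had the same sign, with a median of 0.79 against 1.33 on the probes used. For lower genes 150 of 159 (94.3%) did, with medians of -0.92 and -1.09. Over all genes 76.3% of the other probes shared the sign. For genes called higher by more than 3 log2 units, 13 of 17 other probes (76.5%) shared it, a share close to that over all genes, and their median was 1.05 against 3.40. With a normexp background correction all 128 genes named by rule kept their sign, but 33 had a difference more than 1.5 times smaller and 0 one as much larger.

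**Figure D2:**
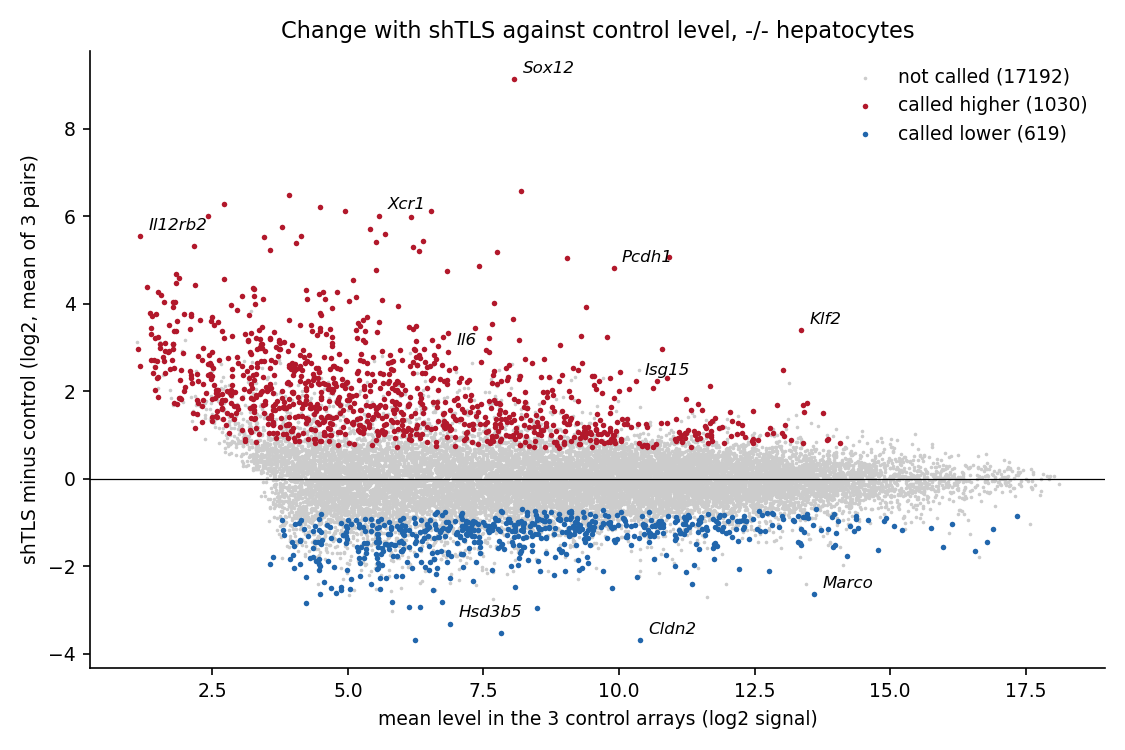
Difference with shTLS (log2, mean of 3 mice) against the mean level in the 3 control arrays (log2 signal), 1 point per gene, with 1030 genes called higher in red and 619 called lower in blue. Large rises lie mostly at low control levels, while Marco is a fall at a high level. The control level enters both axes.

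The largest rise was that of Sox12, which encodes a transcription factor of the SRY-box family. Its control levels were 5.81, 8.20 and 10.21, and its shTLS levels 17.10, 17.28 and 17.27. The controls were spread over more than 4 log2 units, while the shTLS values were nearly equal and close to the brightest genes on the array. The difference was 9.15 (SE 1.10, adjusted p = 0.00604), and it was not called without mouse 2. In +/+ cells the Sox12 difference was 9.50.

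Next among genes with a symbol that were above background on all 6 arrays were Olfr738, an olfactory receptor gene, at 6.12, and Xcr1, the receptor for the chemokine XCL1, at 6.02. Olfr738 read 3.83, 5.22 and 5.79 in controls and 10.19, 11.56 and 11.43 with shTLS. Its groups lay more than 4 log2 units apart (SE 0.26, adjusted p = 0.000222). Asb7, which encodes a substrate receptor of ubiquitin ligases, differed by 5.98 on the probe used, but a second, dimmer Asb7 probe gave -1.07. Then came Adprhl1 at 5.60, Terc, the RNA component of telomerase, at 5.41, and Fam166c at 5.29. Foxj2, a forkhead transcription factor gene, differed by 5.06 and Pcdh1, encoding a protocadherin, by 4.81. Pcdh1 had the highest mean control level of these, with 9.57, 9.82 and 10.30 against 14.52, 14.85 and 14.75. The list of 12 ended with Lce1l, a gene of the cornified envelope, at 4.78, the somatostatin receptor gene Sstr4 at 4.76 and the olfactory receptor gene Olfr149 at 4.55.

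Klf2, a transcription factor gene of endothelial cells and lymphocytes that also answers to shear stress, had the highest control level of all genes called higher by more than 3 log2 units. It read 13.37, 13.41 and 13.32 in controls and 16.63, 16.78 and 16.88 with shTLS. Both groups were tight, and the difference of 3.40 (SE 0.18, adjusted p = 0.000284) was called in each of the fits that left out 1 mouse. A second Klf2 probe, at a mean level of 10.22, showed no such rise, with 0.52, 0.20 and -0.73 in the 3 mice.

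For 101 of the genes called higher the probe was above background on none of the control arrays, so only a lower bound of the change can be given. The bound compares the shTLS mean with the detection limit of the control arrays, and holds for the main background subtraction only. By this measure Fndc8 rose at least 55.1-fold, and Il12rb2, which encodes a chain of the receptor for interleukin-12, at least 11.8-fold. The bound was 6.53-fold for Gcg, the glucagon precursor gene, 4.51-fold for Morc2b and 4.18-fold for the hair keratin gene Krt34. With normexp background the log2 differences were 2.62 for Fndc8, 1.28 for Il12rb2, 0.75 for Gcg, 0.56 for Morc2b and 0.61 for Krt34. Morc2b and Krt34 were then not called (limma, adjusted p = 0.0591 and 0.084). In the other direction 13 genes were called lower and were not above background with shTLS. Of these Mcpt8, a protease gene of basophils and mast cells, was at least 3.18-fold lower, Fam180a at least 2.23-fold, Optc at least 1.67-fold and Sptssb at least 1.40-fold. With normexp background their log2 differences were -0.32, -0.30, -0.22 and -0.26, and they were not called (limma, adjusted p = 0.105 to 0.26).

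Among the falls, Cldn2 stood first. It encodes claudin-2, a tight junction protein that forms pores for cations and water. Its level was 11.99, 10.87 and 8.31 in controls and 8.58, 6.82 and 4.73 with shTLS. The groups overlapped across mice, because mouse 3 had a low control level, but each mouse fell by more than 3 log2 units. The difference was -3.68 (SE 0.35, adjusted p = 0.00265) and was called in each of the fits that left out 1 mouse. Unpaired, the adjusted p was 0.283. The mitotic phosphatase gene Cdc25b fell from 10.11, 10.27 and 9.23 to 7.84, 8.0 and 6.30, a difference of -2.49 (SE 0.25, adjusted p = 0.00332), without overlap. A second Cdc25b probe gave -1.76.

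The other 10 of the 12 largest falls each lost their call when at least 1 of the mice was left out. Marco, a scavenger receptor gene of macrophages, differed by -2.64 and Vsig4, a complement receptor gene of Kupffer cells, by -2.09. Cxcl13, encoding a chemokine that attracts B cells, differed by -2.41. Of structural genes, the tubulin gene Tubb2b differed by -2.47, the bile duct keratin gene Krt19 by -2.07 and the histone gene H2bu2 by -2.10. Mal2, which acts in transport to the apical surface of hepatocytes, fell from 12.80, 13.77 and 11.75 to 10.52, 11.14 and 10.35 (difference -2.11, adjusted p = 0.0158). Its groups did not overlap. Celsr1, a cadherin of planar cell polarity, differed by -2.10, the peroxisomal membrane gene Pxmp4 by -2.20 and Depdc1b by -2.25.

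Among the gene lists described here, the interferon-stimulated genes had the most members called higher. Of 53 genes listed, 43 were tested; 16 of these were called higher and 0 lower, and 41 had a positive difference. The share called higher over all genes was 5.47%. The median of the list was 1.26 against -0.02 for all genes, and it was 1.74, 1.01 and 0.81 in mice 1, 2 and 3. With spike-in scaling the median was 0.40 against -0.78 for all genes, with 7 members called higher and 1 lower.

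Rsad2, which encodes the antiviral enzyme viperin, read 9.08, 9.45 and 8.90 in controls and 12.64, 11.37 and 11.04 with shTLS. All shTLS values lay above all control values, and mouse 1 rose most. The difference was 2.54 (SE 0.45, adjusted p = 0.0216). Isg15, a ubiquitin-like modifier, read 10.28, 10.32 and 10.36 in controls and 13.65, 11.99 and 12.03 with shTLS, a difference of 2.24 (SE 0.52, adjusted p = 0.0456). Its controls were nearly equal, and the spread came from the shTLS cultures. Usp18, the protease that removes ISG15 and dampens interferon signalling, differed by 1.70 (SE 0.20, adjusted p = 0.00577) and was the only 1 of the 16 that was called in each of the fits with 1 mouse left out.

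The other called members covered several arms of the response. Among antiviral effectors, Ifit3, which binds viral RNA, differed by 2.37 and Ifi44 by 2.25. The oligoadenylate synthetase-like genes Oasl2 and Oasl1 differed by 1.78 and 1.40, and the exonuclease gene Isg20 by 1.26. Of the guanylate-binding proteins, Gbp3 differed by 2.36 and Gbp2 by 1.42. Sensors of nucleic acid also rose: Zbp1 by 2.05, the double-stranded RNA kinase gene Eif2ak2 by 1.51, Ddx58, which encodes RIG-I, by 1.33, and the RNA-editing gene Adar by 0.94. The poly(ADP-ribose) polymerase genes Parp12 and Parp9 differed by 1.10 and 1.02.

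The listed genes of interferon signalling and nucleic acid sensing moved less. Of 29 tested, 1 was called higher and 0 lower, with a median of 0.05. The type I interferon genes, looked at after their values were seen, had 4 of 8 tested called higher, with a median of 2.15. Irf7, a transcription factor induced by interferon, differed by 1.38 but was not called (adjusted p = 0.064). Of 18 antigen presentation genes 0 were called by limma, paired or not, with a median of 0.33 and 6 at an unadjusted p under 0.05; over all genes 29.1% were.

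**Figure D3:**
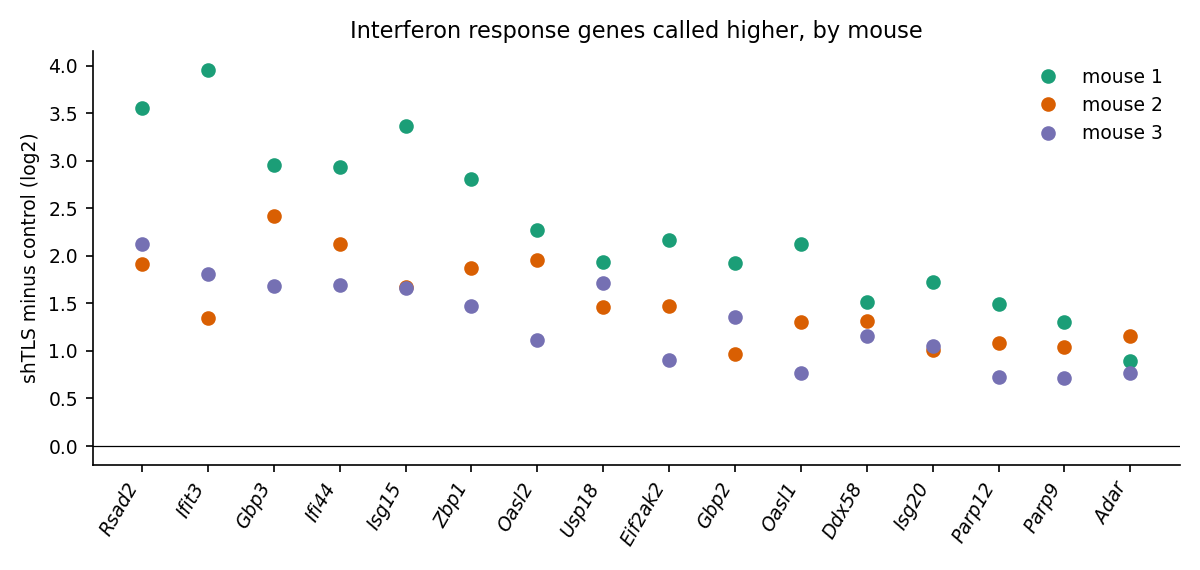
Difference with shTLS (log2, shTLS minus control) of the 16 interferon response genes called higher, with 1 point per -/- mouse. Every point lies above 0, and mouse 1 is highest for all of the genes but Adar.

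The call of this group rests on all 3 mice and on the pairing. Without mouse 1, 2 or 3 the number called was 1, 1 or 3, and without the pairing it was 1, while the list median without each mouse stayed between 0.96 and 1.42. Macrophage markers, which belong to a cell type that also answers to interferon, had a median of -1.13 over the same arrays. Which cells the interferon-stimulated transcripts came from was not tested.

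The promoters of the induced genes are shown because a known DNA element marks this gene class. The interferon-stimulated response element was searched as GAAANNGAAA on both strands, in windows from 250 bases before to 50 after the start of transcription (RefSeq, GRCm38.p6). Of the 12712 tested genes with a symbol, 10170 matched the promoter table. The element was found in 3.99% of all promoters, 3.69% of those of tested genes, 6.38% of 486 genes called higher and 3.55% of 310 called lower. It was in 16 of the 31 tested interferon genes that matched, called or not, and in 7 of the 13 called ones. The 180 bases before the start of 4 called genes follow, on the strand of the gene, with matches in capitals; Isg15 has 3 overlapping matches (chr4:156200819-156200998, minus strand), Ifit3 has 2 (chr19:34583349-34583528, plus strand), Gbp3 has 2 overlapping ones (chr3:142559864-142560043, plus strand) and Rsad2 has 1 (chr12:26456453-26456632, minus strand).
Isg15: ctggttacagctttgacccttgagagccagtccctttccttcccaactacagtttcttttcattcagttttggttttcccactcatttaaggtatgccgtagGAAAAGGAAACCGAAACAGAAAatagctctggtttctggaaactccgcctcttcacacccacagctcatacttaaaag
Ifit3: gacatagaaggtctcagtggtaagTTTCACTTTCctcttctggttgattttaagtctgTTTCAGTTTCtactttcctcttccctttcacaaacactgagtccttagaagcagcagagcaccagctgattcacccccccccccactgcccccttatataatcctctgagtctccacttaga
Gbp3: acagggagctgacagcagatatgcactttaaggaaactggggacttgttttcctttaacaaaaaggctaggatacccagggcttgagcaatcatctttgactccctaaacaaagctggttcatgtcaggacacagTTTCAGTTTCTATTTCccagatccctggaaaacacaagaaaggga
Rsad2: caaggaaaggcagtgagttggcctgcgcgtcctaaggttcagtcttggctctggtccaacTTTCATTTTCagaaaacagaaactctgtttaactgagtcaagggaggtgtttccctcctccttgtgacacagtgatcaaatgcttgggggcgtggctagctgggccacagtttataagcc

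Cytokine genes split in direction. Of 19 tested, 2 were called higher and 2 lower, with a median of -0.35. Il6, the main inducer of the acute phase response in hepatocytes, read 6.56, 7.86 and 6.14 in controls and 9.01, 9.82 and 10.46 with shTLS. All shTLS values were above all control values, with a difference of 2.91 (SE 0.43, adjusted p = 0.0125). Ccl5, a chemokine for T cells, read 7.02, 6.72 and 6.47 against 9.92, 9.36 and 8.73 (difference 2.59, SE 0.34, adjusted p = 0.00801). Il18 differed by -0.84 and Ccl3 by -0.80. The Ccl3 controls were 10.08, 11.64 and 4.99, so mice differed far more than vectors. Of 28 acute phase genes 1 was called in each direction, and of these Il6ra, the interleukin-6 receptor gene, differed by 1.17 and Il1r1, the interleukin-1 receptor gene, by -1.09. Nfkbib, an inhibitor of NF-kappaB, was the only 1 of 24 genes of that pathway to be called, at 0.84.

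A few genes of sterol synthesis and sensing were called lower with shTLS. Of 19 tested cholesterol synthesis genes 2 were called lower and 16 had a negative difference, with a median of -0.68; 3.29% of all genes were called lower. Srebf2, the transcription factor that drives this pathway when sterols are low, fell from 8.67, 9.20 and 9.38 to 7.82, 7.70 and 8.04 (difference -1.23, SE 0.20, adjusted p = 0.0161). Hmgcs1, which makes HMG-CoA, was 1 of the 2 called synthesis genes and differed by -0.96 (SE 0.22, adjusted p = 0.0462). Both Hmgcs1 probes gave close values. Of 22 genes of sterol sensing, uptake and efflux 2 were called lower, Srebf2 among them, and 0 higher; 7 of the 22 had a positive difference, and the median was -0.27. Without the pairing both lists had 0 calls. With any 1 mouse left out the synthesis list had 0 calls, and the other list had 2 without mouse 1 and 0 without mouse 2 or 3.

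The sterol regulatory element, searched as TCACNCCAC on both strands, was in 1.44% of all promoters and in 1 of 14 matched cholesterol synthesis genes. That gene was Hmgcs1, shown with its match in capitals (chr13:119690171-119690350, plus strand).
Hmgcs1: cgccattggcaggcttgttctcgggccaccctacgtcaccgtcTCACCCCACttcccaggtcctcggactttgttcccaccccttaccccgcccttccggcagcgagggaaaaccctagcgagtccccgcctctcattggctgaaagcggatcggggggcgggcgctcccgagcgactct

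Of 30 tested fatty acid and triglyceride synthesis genes 2 were called lower and 0 higher, and 26 had a negative difference, with a median of -0.53. Scd2, a stearoyl-CoA desaturase, differed by -1.49 (SE 0.30, adjusted p = 0.0321) and Acsl5, an acyl-CoA synthetase, by -0.97 (SE 0.20, adjusted p = 0.0317). Fasn, the fatty acid synthase gene, differed by -0.59 and was not called (adjusted p = 0.0791). Of 34 genes of fatty acid oxidation, Cyp4a10, an omega-hydroxylase induced by PPARalpha, was the only 1 called, at -1.18. With normexp background Cyp4a10 differed by -0.29 and was not called (limma, adjusted p = 0.146). It was also not called when any 1 mouse was left out.

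Conjugation enzymes detoxify drugs and reactive metabolites. Of 19 tested glutathione transferases 2 were called lower, where 3.29% of all genes were. All 19 had a negative difference, with a median of -0.70. The list of hepatocyte markers had a median of -0.67 on the same arrays, with 0 called, and its part in these values was not tested. Gsta4, which clears lipid peroxidation products, read 10.30, 11.38 and 10.20 in controls and 8.66, 10.27 and 9.13 with shTLS (difference -1.28, SE 0.20, adjusted p = 0.0152). Each mouse fell by more than 1 log2 unit, while the groups overlapped. Gstt3 differed by -1.25. Of 18 genes of glucuronidation and sulfation 2 were called lower and 5 had a positive difference. Without the pairing, and with any 1 mouse left out, both this list and the glutathione transferases had 0 calls. Ugt2b35 differed by -2.00 and Ugdh, which makes UDP-glucuronic acid, by -0.90. Glrx, the glutaredoxin gene, was the 1 called of 16 peroxiredoxin and thioredoxin genes, at -1.46. The efflux pump gene Abcc4 was the 1 called of 22 genes of glutathione synthesis and NRF2, at -0.87. Of 21 transporters the amino acid carriers Slc38a3 and Slc7a2 were called, at -1.06 and -0.89.

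Cytochrome P450 genes of families 1 to 3 had a median of -0.63, yet the only called member was higher. Cyp2c55 rose from 3.35, 3.85 and 4.68 to 6.19, 6.69 and 6.92 (difference 2.64, SE 0.42, adjusted p = 0.0159). The Cyp2c55 probe was above background on 2 of the 3 control arrays, its difference was 0.78 with normexp background (adjusted p = 0.0532), and it was not called when any 1 mouse was left out. The median of these genes was -1.32, -0.44 and -0.03 in mice 1, 2 and 3. Cyp46a1, a cholesterol hydroxylase known from brain, was the only called gene of 16 in bile acid synthesis, at 1.58. Among liver-enriched transcription factors, Nr1i3, which encodes the xenobiotic receptor CAR, rose from 6.74, 6.64 and 6.99 to 8.39, 8.82 and 8.41 without overlap (difference 1.75, SE 0.25, adjusted p = 0.0117). Zhx2, a repressor of fetal liver genes, differed by 1.12. Hsd3b5, a steroid dehydrogenase of male liver, fell from 8.89, 7.03 and 4.76 to 5.40, 4.16 and 1.19. Mouse 3 started lowest, and Hsd3b5 was above background on 2 of the 3 shTLS arrays, so the size of the fall is uncertain. The fitted Hsd3b5 difference was -3.31 (SE 0.55, adjusted p = 0.0187); it was -1.19 with normexp background (adjusted p = 0.0733) and was not called when any 1 mouse was left out. Igfals, whose product carries insulin-like growth factors in plasma, differed by -1.03.

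PGC-1alpha is known for raising genes of mitochondria and of fasting. Of 57 oxidative phosphorylation genes 0 were called in either direction by limma, paired or not, and 5 had an unadjusted p under 0.05 (8.77%, against 29.1% of all genes). Their median was -0.16. Of 20 genes of the tricarboxylic acid cycle 0 were called and 3 had an unadjusted p under 0.05, with a median of -0.18. With spike-in scaling 9578 of all 18841 genes tested were called lower, and the median of all genes was -0.78. Under that scaling 48 of the 57 and 18 of the 20 were called lower, at medians of -0.89 and -0.92. In mitochondrial biogenesis 2 of 23 were called, a share close to the 8.75% of all genes: Gabpb1, a subunit of the respiratory factor NRF2/GABP, at 0.98, and the mitochondrial transcription factor gene Tfb2m at 0.94. Mrpl41 was the only called gene of 67 mitochondrial ribosomal proteins, at -0.96. Of 24 genes of gluconeogenesis and glycogen, Pdk4, the kinase that shuts off pyruvate dehydrogenase in fasting, was called at 1.38. Cytosolic ribosomal proteins, 79 in number, had 0 calls, 2 genes at an unadjusted p under 0.05 and a median of 0.06. In amino acid breakdown and the urea cycle 0 of 39 were called, with a median of -0.52 and 6 at an unadjusted p under 0.05.

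**Figure D4:**
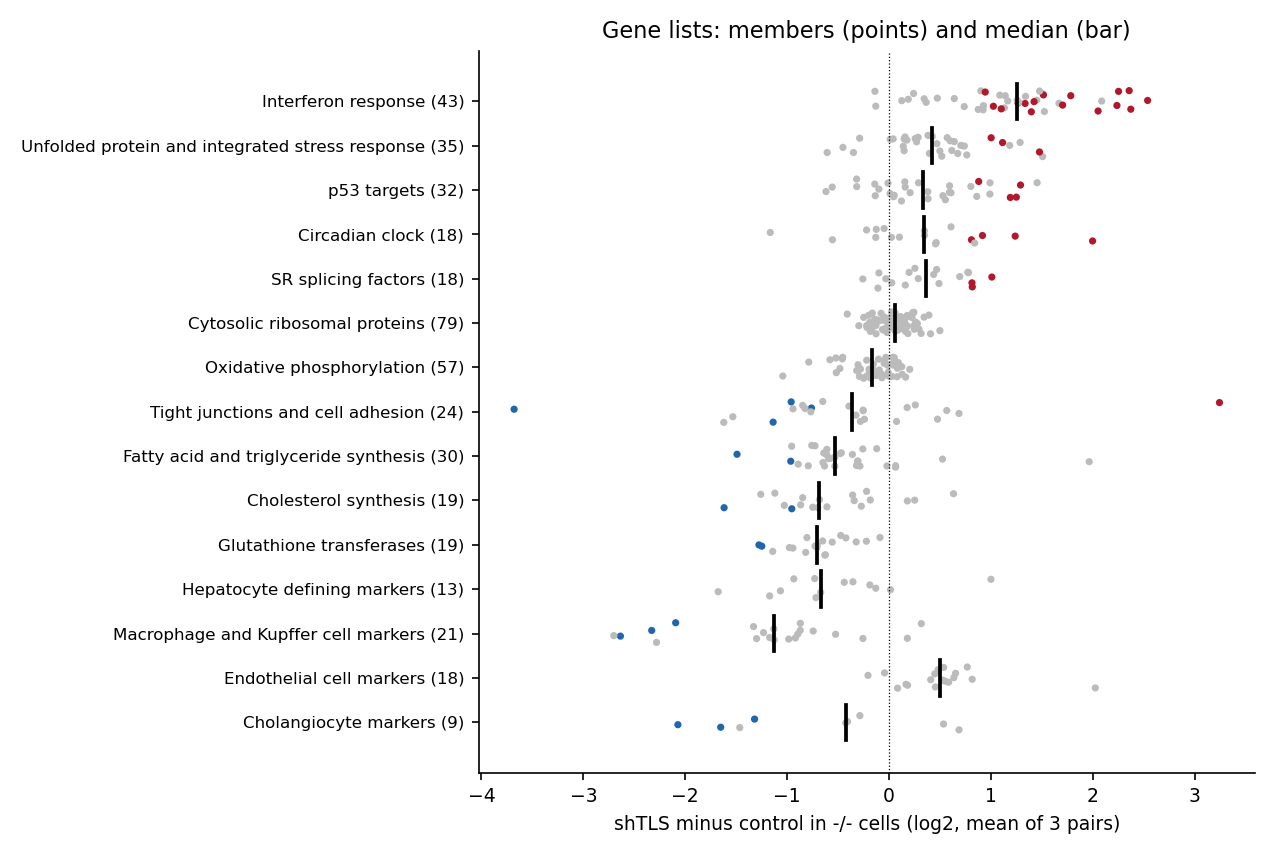
Difference with shTLS (log2, mean of 3 -/- mice) of the tested members of 15 gene lists (number tested in brackets), with called members in red (higher) or blue (lower), other members in grey and the list median as a bar. The interferon response median is 1.26, and the macrophage and Kupffer cell median is -1.13.

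Tight junction and adhesion genes were called in both directions: 4 of 24 were lower and 1 higher, where 3.29% and 5.47% of all genes were. Besides Cldn2, the lower ones were Cldn3, a sealing claudin, at -1.14, the epithelial cadherin gene Cdh1 at -0.96 and occludin, Ocln, at -0.76. Cldn3, Cdh1 and Ocln were not called when any 1 mouse was left out. Without the pairing 0 genes of the list were called lower. Cldn14 was the exception: it rose from 6.27, 7.07 and 6.93 to 9.26, 10.47 and 10.25, without overlap (difference 3.24, SE 0.30, adjusted p = 0.00247). In the list of matrix and cytoskeleton, Timp2, an inhibitor of metalloproteinases, differed by -1.68 and the hepatocyte keratin gene Krt8 by -0.85.

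Of 46 cell cycle genes 4 were called, a share close to the 8.75% of all genes, and the list median was -0.23. Besides Cdc25b, Aurkb, the kinase of the chromosomal passenger complex, differed by -1.83 (SE 0.25, adjusted p = 0.0102) and Knl1, a kinetochore scaffold, by -1.26. Mcm7, a subunit of the replicative helicase, differed by 0.83. Of 32 p53 targets 4 were called higher, where 5.47% of all genes were, and 0 lower, with a median of 0.33. Eda2r, a death receptor, differed by 1.29 and the translesion polymerase gene Polk by 1.25. Gadd45b differed by 1.19 and Mdm2, the ubiquitin ligase for p53, by 0.88. With normexp background Eda2r differed by 0.47 and was not called (limma, adjusted p = 0.103). Without the pairing 0 p53 targets were called, and without mouse 1, 2 or 3 the number was 1, 0 or 0. Under spike-in scaling the median of the p53 list was -0.45 against -0.78 for all genes, and 0 members were called higher. Of 37 DNA repair genes 3 were called, near the share of all genes: the checkpoint kinase gene Chek1 differed by 0.85, while H2ax, the histone that marks double-strand breaks, differed by -1.52 and the ligase gene Lig3 by -0.77. Of 27 apoptosis regulators 2 were called lower, where 3.29% of all genes were: Bmf, which promotes apoptosis, fell by 1.44 and Bcl2l1, which encodes the protective BCL-XL, fell by 1.23 on the log2 scale.

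Some stress and clock genes rose. Of 35 genes of the endoplasmic reticulum and integrated stress responses 3 were called higher, where 5.47% of all genes were, with a median of 0.42: Ppp1r15a and Ppp1r15b, the phosphatase subunits that restore translation, at 1.48 and 1.11, and Atf6, a sensor of unfolded proteins, at 1.00. Of 18 clock genes 4 were called higher and 0 lower, with a median of 0.35. Ciart, a repressor of the clock, rose from 7.17, 8.04 and 9.59 to 9.05, 11.10 and 10.64 (difference 2.00, SE 0.44, adjusted p = 0.0405). Nr1d1, the repressor REV-ERBalpha, rose by 1.24, Nfil3 by 0.92 and Arntl, which encodes the activator BMAL1, by 0.81. With spike-in scaling the medians of these lists were -0.36 and -0.49, against -0.78 for all genes. Both lists had 0 calls without the pairing and when any 1 mouse was left out. The heat shock factor gene Hsf1 was called lower, at -0.82.

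Ciart is shown since its promoter holds 3 E-boxes (CACGTG, the element bound by BMAL1 and CLOCK), in capitals (chr3:95882229-95882408, minus strand). An E-box was in 8.09% of all promoters, in 11.3% of those of tested genes and in 5 of the 15 matched clock genes. Of the 4 called clock genes it was in 1, Ciart.
Ciart: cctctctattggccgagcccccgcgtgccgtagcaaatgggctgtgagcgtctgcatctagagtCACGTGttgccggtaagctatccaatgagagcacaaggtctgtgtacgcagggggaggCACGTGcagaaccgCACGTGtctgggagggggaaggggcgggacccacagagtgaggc

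In nutrient signalling, 4 of 33 genes of mTORC1 and the GATOR complexes were called, 2 higher and 2 lower, where 8.75% of all genes were. The list median was 0.03. Without the pairing 1 member was called, and with any 1 mouse left out 0 were. Nprl3, a subunit of GATOR1, fell from 8.38, 8.34 and 7.74 to 6.69, 6.22 and 6.11 (difference -1.81, SE 0.24, adjusted p = 0.00885) and the arginine sensor gene Castor1 by 1.16. The Rag GTPase gene Rragd and the folliculin partner Fnip1 rose by 1.29 and by 1.20. Pdpk1, the kinase that activates AKT, was called in the insulin list at 2.23. Over the alternative settings its difference ranged from 0.81 to 2.63, and it was not called without mouse 1 or 2. Its levels were 10.91, 10.28 and 10.94 in controls and 13.73, 12.73 and 12.36 with shTLS.

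The FET genes Taf15 and Ewsr1, which encode RNA-binding proteins, were not called. Taf15 differed by 0.45 and Ewsr1 by 0.34, with adjusted p of 0.136 and 0.231. Of 18 SR proteins and their kinases 3 were called higher, with a median of 0.36: the splicing factor genes Srsf4 at 1.01 and Srsf2 at 0.81, and Clk4, a kinase for SR proteins, at 0.82. Under spike-in scaling the median of that list was -0.43 against -0.78 for all genes. Hnrnpa3 was the only called gene of 24 hnRNP genes, and fell from 16.40, 16.10 and 15.96 to 15.61, 14.97 and 14.77 (difference -1.04, adjusted p = 0.0208). Zc3h6 was the only called gene of 8 in the paraspeckle list, at -1.41. With normexp background Zc3h6 differed by -0.21 and was not called (limma, adjusted p = 0.269). In microRNA processing, Xpo5, the exporter of precursor microRNAs, differed by 0.83 and Prkra, a partner of Dicer, by -0.81. A second, dim Xpo5 probe gave -1.31.

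Markers of hepatocytes, the cell type on the label, were strongly expressed. All 13 were above background on all 6 arrays, 0 were called (2 had an unadjusted p under 0.05), and Alb, albumin, read 16.87 to 17.44. The hepatocyte list had a median of -0.67, with -1.15, -0.55 and 0.13 in the 3 mice. Markers of other liver cells were present too, and some moved with the vector. Of 21 macrophage and Kupffer cell markers 3 were called lower (Marco, Vsig4 and Clec4f) and 19 had a negative difference. With normexp background Vsig4 and Clec4f differed by -1.39 and -0.68 and were not called (limma, adjusted p = 0.0685 and 0.0875). The median of the macrophage and Kupffer cell markers was -1.13, with -0.64, -2.17 and -0.59 in mice 1, 2 and 3. Of 23 such genes on the array 20 were above background on all 6 arrays, and their summed linear signal was 77400, 95300 and 13400 in controls and 37500, 13300 and 9390 with shTLS. Marco read 15.17, 15.43 and 10.20 in controls and 13.39, 11.12 and 8.39 with shTLS, so the controls alone spanned more than the difference between vectors. In bulk RNA, fewer cells of a type and less RNA per cell cannot be told apart.

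Of 9 tested markers of bile duct cells 3 were called lower, where 3.29% of all genes were. The median of these markers was -0.42, with -1.21, 0.21 and -0.65 in mice 1, 2 and 3. Without the pairing, and with any 1 mouse left out, 0 of them were called. Krt19 read 13.28, 12.74 and 10.64 in controls and 10.26, 11.37 and 8.80 with shTLS; Spp1, osteopontin, differed by -1.65 and Cd24a by -1.32. The summed signal of this list was 224000, 112000 and 51500 in controls and 66200, 35000 and 19700 with shTLS, with 1 of the 11 markers on the array above background on none of the 6. Endothelial markers, all 18 of them above background on all 6 arrays, had 0 calls, 6 genes at an unadjusted p under 0.05 and a median of 0.50, which was -0.36 with spike-in scaling, where all genes had -0.78. Their summed signal was 9110 to 23700 in controls and 13300 to 38600 with shTLS. Of 12 stellate cell markers 0 were called, 2 had an unadjusted p under 0.05, and Gfap was above background on no array. Of 15 lymphocyte markers on the array 9, Cd8a and Ms4a1 among them, were above background on none of the 6 arrays. Of the 4 tested, Cd79b and Cd3e were called higher, at 2.60 and 1.26, from control levels under 5. With normexp background Cd79b and Cd3e differed by 0.86 and 0.43 and were not called (limma, adjusted p = 0.113 and 0.0567). The part of these cell types in the changes of other genes was not tested.

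The same contrast in +/+ cells gave values close to those in -/- cells. Of the 1649 calls 1415 (85.8%) were also called in the same direction in +/+ mice, which is 47.5% of the 2980 calls there, and 0 were called in opposite directions. The differences of the 2 genotypes came from different mice and arrays, but the same vectors and slides. Both were tested in 1 fit, with a spread per gene pooled over the genotypes, so their calls are not independent. Across all genes tested, which are not independent, the differences in the 2 genotypes correlated at 0.89; over the -/- calls alone, which were selected for their size, the value was 0.97. The test of the difference between genotypes called 0 genes (0%; limma), with 267 of 18841 at an unadjusted p under 0.05 and also 0 without the pairing. The interferon list had a median of 1.26 in -/- and 0.67 in +/+ cells, with 16 and 8 members called higher, but 0 of its members were called in the test of the difference. Irf7 illustrates the spread, at 1.38 in -/- and 0.20 in +/+ cells.

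**Figure D5:**
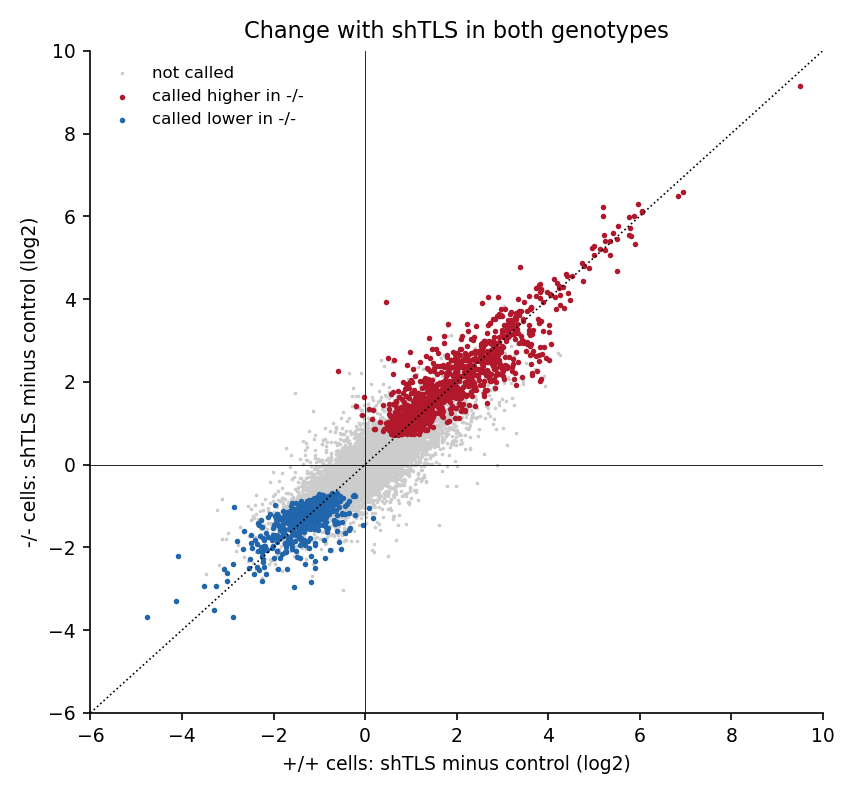
Difference with shTLS (log2) in -/- cells (vertical) against +/+ cells (horizontal), 1 point per gene, with genes called in -/- cells in red (higher) or blue (lower); the dotted line marks equal differences. The called genes follow the line, up to Sox12 at 9.15 and 9.50.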

How the data were processed

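Total RNA of 12 hepatocyte cultures was hybridized to 1-colour Agilent whole mouse genome arrays. Per the file headers, the authors' array files give 1 background-subtracted intensity per spot, the processed signal of Feature Extraction 10.1.1.1 (mm8 probe annotation). A deposited series table gives log2 values after quantile normalization, per the labels; recomputed values correlated with it at 0.99997 or more per array. Spots flagged as outliers (74 to 206 per array) were dropped, signals floored at 1, quantile normalized and log2 transformed. A probe was tested if well above background on all 3 arrays of either -/- group, which left 24734 probes and 18841 genes, 12712 of them with a RefSeq symbol (GRCm38.p6 table); 78 genes had a missing value on some array. Of all probes 24375 had a symbol and 16799 had none and are counted by accession. A gene is its brightest tested probe.

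The test was limma 3.58.1 in R 4.3.3, fitted to all 12 arrays with the mouse as a block (residual degrees of freedom 4, prior 2.92), two-sided, with Benjamini-Hochberg adjustment over all genes. The pairing comes from the sample labels, which name the mouse of each culture, and same-mouse correlations were 0.61, 0.61 and 0.68 in -/- and 0.48, 0.66 and 0.46 in +/+ mice. An SE covers the spread of within-mouse differences in both genotypes. The number of arrays limits the precision.

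Named genes were Ppargc1a, the 12 largest called rises and falls above background on all 6 arrays with the same sign in every mouse, up to 5 bounds in each direction, and up to 6 called members per list and direction. Up to 3 members with the smallest p were available where a list had none called; Taf15, Ewsr1, Fasn, Irf7 and Alb, and the second probe of a gene, were added for context after their values were seen. The members and gene lists were chosen with earlier results of these data known. No set test was made. Results for some genes are not reported here. The script was tested on simulated data. Alternatives are given at the end. Pooled or unmapped columns were not used.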

Additional observations from a re-analysis of the deposited data

How the results depend on the processing

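Without the replicate block, 191 genes were called (184 higher, 7 lower), among them 1 interferon response gene against 16 with pairing by mouse, and all 191 were among the 1649 main calls. With the slide as the block the lower calls numbered 364, and with only the 6 -/- arrays 1062, against 619. Spike-in scaling, on 8 probes, gave 10241 calls, 663 higher and 9578 lower, with 7 interferon genes higher; Xpo5 became -0.026 and Arntl -0.045. Xpo5 was -0.241 as the mean of its tested probes. With no filter on dim probes 32968 genes were tested and 714 called (504 higher, 210 lower), 3 of them interferon genes. Leaving out 1 mouse gave 183 to 378 calls, 171 to 313 higher and 12 to 65 lower, and 1 to 3 interferon genes. Scaling to the 75th percentile (2052 calls), normexp background (1348), the authors' deposited values (1623), a filter on all 6 arrays (1234), the mean of probes (1676) and a robust prior with trend (1934) kept the total count within 1.5 times. The normexp run used median signals. The cause of these shifts was not tested. Over 128 named genes and 14 settings, 1142 values kept direction and call, 632 lost the call, 1 gained it and 3 changed sign. The difference between genotypes had 0 calls in each setting where it could be fitted.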

Other observations

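Some gene families were looked at after the values were seen, so they are described without a test of their own. Of 110 olfactory receptor genes tested 20 were called higher and 0 lower, with a median difference of 0.37 and a median control level of 4.43. The share called higher was 5.47% over all genes and 9.85% in the dimmest of the 4 bins by level. Of 8 tested type I interferon genes 4 were called higher, with a median of 2.15: Ifna12 at 3.52, Ifna1 at 2.98, Ifnab at 2.86 and Ifna13 at 1.68. Ifna12 read 2.96, 4.00 and 5.37 in -/- controls and 5.84, 8.02 and 9.02 with shTLS. These genes are near-identical copies, so a probe may read more than 1 of them. In +/+ cells Ifna12 differed by 3.44. Mouse 1 had the lowest Ifna12 level both in control and with shTLS. The relation of these genes to the interferon-stimulated genes was not tested. Of 13 UDP-glucuronosyltransferase genes 2 were called lower, with a median of -0.62. Of 267 zinc finger genes named Zfp 5 were called higher and 8 lower, with a median of 0.01. Over all genes 5.47% were called higher and 3.29% lower.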
